A study of Mus musculus with 48 samples.

Results

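Skin of the mouse ear labelled telogen was compared with skin of the back labelled competent telogen, across all autosomal genes. In the published work, follicles of the ear pinna are treated as a domain that rests far longer than the back, and the comparison asks which transcripts set that skin apart. The comparison rested on 4 libraries of whole skin from C57BL/6 mice, 2 labelled ear rostral skin in telogen and 2 labelled dorsal skin in competent telogen, of the 48 samples in the series. The published Results call the dorsal skin of this comparison refractory telogen. The legend of the matching figure calls it first telogen, a name the paper also gives to competent telogen. The sample labels and column names give competent telogen and were followed here. Both groups carry no transgene and received no treatment according to the labels, which give no age. Whether each library came from a separate mouse is not given in the sources used here. The p-values therefore measure only a spread between libraries, which may be technical. For the main comparison that spread was estimated over 7 libraries, those of the ear cartilage/muscle complex included. Of 46983 genes listed, 42280 lay on the 19 autosomes and are the subject here. Values are FPKM, fragments per kilobase of transcript scaled to the mapped fragments of the library, and 16723 autosomal genes that reached 0.5 FPKM in 2 or more of the 4 libraries were tested. The depth estimated from the steps of the FPKM values was 28720533 and 16000377 fragments for the ear skin libraries and 15068588 and 11853371 for the dorsal ones. In what follows, each pair of values gives the 2 libraries of a group, ear skin before dorsal skin, and a log2 difference is ear minus dorsal on the scale log2(FPKM + 1), with its standard error. That scale understates the change of genes at low levels.

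Hair follicles pass through growth (anagen), regression (catagen) and rest (telogen). In anagen the matrix at the follicle base divides and gives rise to the hair shaft, built of hair keratins and keratin-associated proteins, and to the inner root sheath that moulds it, while in telogen the lower follicle is gone and a club hair is held beside a resting bulge of stem cells. BMP signals are known for holding bulge cells at rest, and WNT, Hedgehog and FGF signals for starting growth. Between the follicles lies the interfollicular epidermis, whose basal cells carry Krt5 and Krt14 and whose upper layers carry Krt1, Krt10 and the proteins of the cornified envelope.

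The start regions of 4 keratin genes are shown, because the comparison turned on keratins that were far lower in ear skin (Krt31 of the hair shaft, Krt71 of the inner root sheath) or far higher there (Krt10 and Krt2 of the suprabasal epidermis). Each line gives the 100 bases before the RefSeq transcript start on GRCm38.p6, all on the minus strand, 5′ to 3′, with the motif TATAAA in capitals. They lie at chr11:100050552-100050651 (Krt31), chr15:101743098-101743197 (Krt71), chr11:99389365-99389464 (Krt10) and chr15:101818170-101818269 (Krt2).
Krt31: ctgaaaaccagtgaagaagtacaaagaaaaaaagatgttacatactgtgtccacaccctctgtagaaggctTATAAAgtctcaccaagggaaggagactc
Krt71: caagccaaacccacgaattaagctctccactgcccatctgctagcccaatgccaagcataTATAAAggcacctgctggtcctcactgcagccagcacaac
Krt10: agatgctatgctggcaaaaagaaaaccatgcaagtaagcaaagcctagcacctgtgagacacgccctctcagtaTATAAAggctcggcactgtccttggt
Krt2: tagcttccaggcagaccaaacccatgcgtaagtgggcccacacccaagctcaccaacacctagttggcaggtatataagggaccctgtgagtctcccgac
The motif began 29 bases before the start in Krt31, 40 in Krt71 and 26 in Krt10, and these letters are not in the window shown for Krt2. On either strand, TATAAA lay within 50 bases before a start in 5 of 7 type I hair keratin genes with a sequence, 0 of 2 type II hair keratin genes, 6 of 9 inner root sheath genes, 34 of 51 keratin-associated protein genes and 2 of 9 interfollicular keratin genes. Over all 27025 genes of the promoter table the share was 4.17%.

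Checks of the labels came before the comparison. Transcripts of growing hair were abundant in the dorsal libraries labelled competent telogen, which goes against a label of resting skin. The 81 genes for hair keratins, keratin-associated proteins and inner root sheath proteins made up 16.5% and 16.4% of all FPKM there, against 0.0904% and 0.0907% in ear skin. The share ran from 1.19% to 16.5% over the 14 dorsal libraries of all 6 stages, and it was 11.5% in both libraries labelled dorsal refractory telogen and lowest, at 1.29% and 1.19%, in those labelled dorsal early anagen. The ear libraries met the telogen label on these markers, and no dorsal library was as low. The dorsal libraries are therefore named by their label, and the differences from the refractory telogen libraries and from the range of all 14 dorsal libraries are given beside the main ones. Those libraries come from a second table, in which the 2 competent telogen columns hold the same values as in the first.

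The pair of dorsal libraries differed by little more than sampling noise. Among genes with 20 to 200 fragments in the pair, the median squared difference was 1 times the variance of counting alone, and above 1000 fragments it was 1.84 times. For the ear pair the ratios were 1.61 and 6.71. The dorsal pair was kept as 2 libraries, and the fit with their mean as 1 library is given under the alternatives. Each was as close to the 2 chin libraries labelled late anagen (root mean square log2 distance 0.416 to 0.446) as to its own replicate (0.429), where the median of 36 replicate pairs was 0.485. In units of counting variance the dorsal to chin ratios were higher than those of the dorsal pair. They were 1.41 to 1.56 at 20 to 200 fragments and 3.92 to 8.86 above 1000. Within the chin pair the ratios were 1.82 and 10.8. The groups also differed in transcripts that mark sex. Xist, which is transcribed from the inactive X chromosome of females, was 0.01 and 0.02 FPKM in ear skin and 7.74 and 8.12 in dorsal skin, so that sex and body site cannot be told apart in any difference that follows. The authors state a batch correction without naming batches, and batch and site cannot be told apart either.

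Ear skin and the dorsal libraries differed in most of the autosomal transcriptome. At an adjusted p under 0.05, 8362 of 16723 genes (50.0%) were higher and 2773 (16.6%) lower in ear skin (limma, Benjamini-Hochberg adjustment over all genes tested), and the median log2 difference was 0.39. Of these, 3200 and 1157 differed by at least 1 on the log2 scale. The balance of directions moved with the scaling. After median-of-ratios scaling, 5487 genes (32.8%) were higher and 4722 (28.2%) lower, and the median was 0.07. All of those higher genes and the 2773 lower genes of the unscaled fit were called the same way by both fits, and 21 genes changed from higher to lower. A member of a list is therefore read against a median of 0.39, and counts after scaling are given where the balance of a list changed.

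Against dorsal refractory telogen, 8689 of 16807 genes (51.7%) were higher in ear skin and 2543 (15.1%) lower. These comparisons share the ear libraries. Of the genes higher against competent telogen, 6950 were also higher against refractory telogen and 83 were lower, and of those lower, 1814 were lower and 165 higher. Both ear libraries lay above all 14 dorsal libraries for 4778 genes (28.6%) and below all of them for 1378 (8.24%). Of the 208 genes named below that passed the test, the calls of Krt14, Krt16, Wnt10a, Wnt3, Tnc, Fbln1, Top2a, Pmel and Pecam1 were lost when 1 library was left out. Whole skin was sequenced, so fewer cells of a type and less RNA per cell cannot be told apart.

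**Figure D1:**
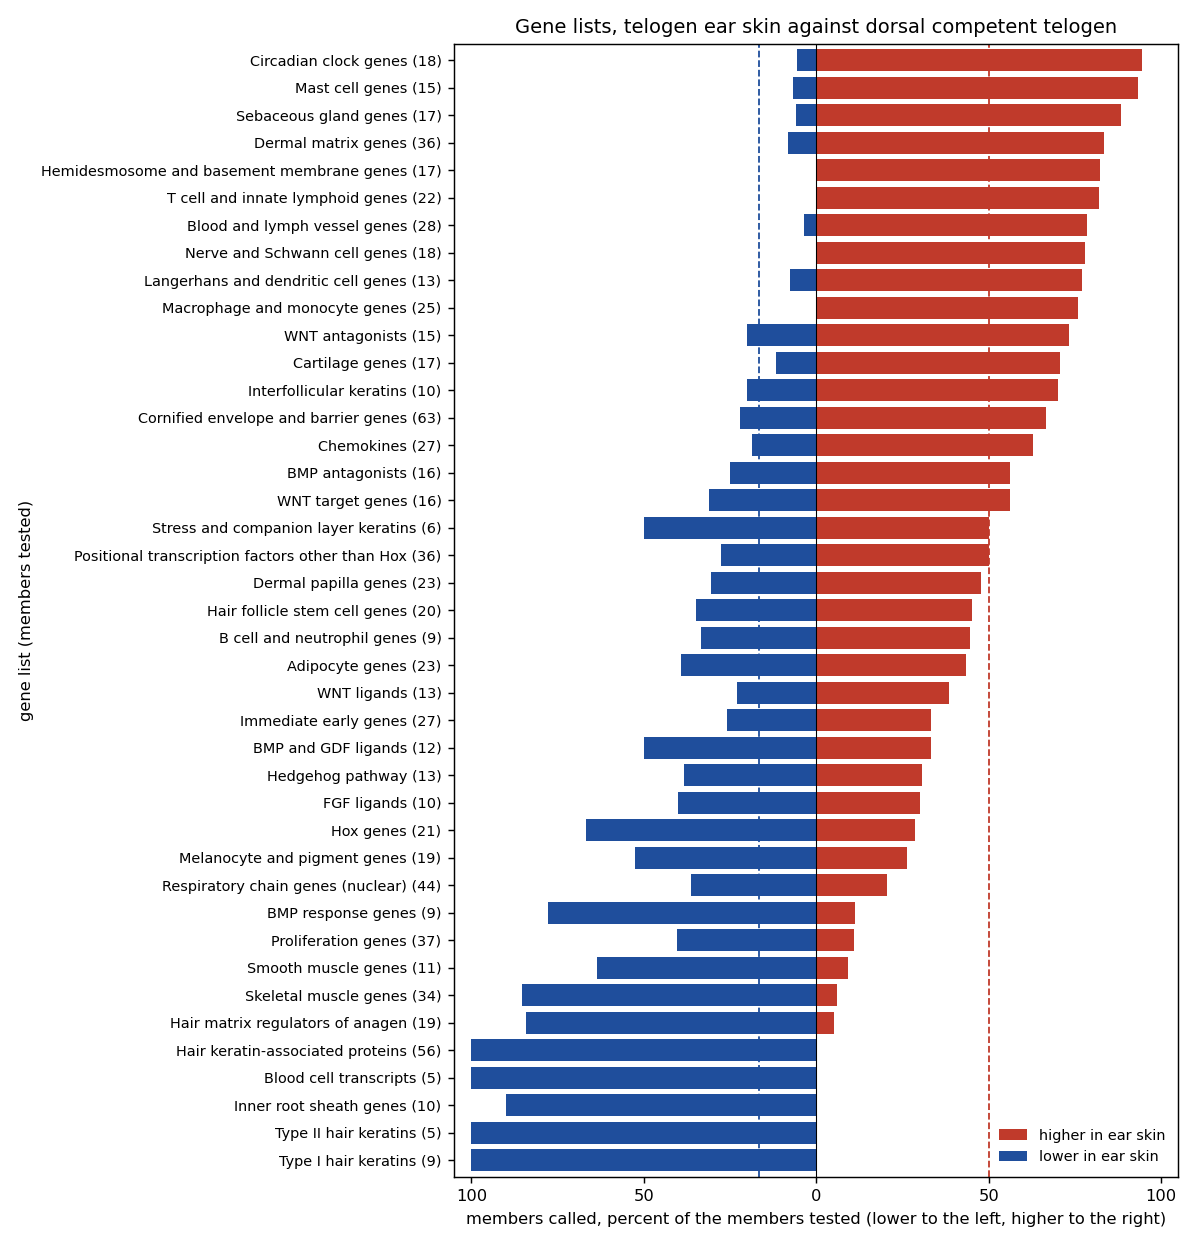
Share of the tested members of each gene list that was higher (red, to the right) or lower (blue, to the left) in telogen ear skin than in dorsal competent telogen, in percent, with the number tested in brackets. The dashed lines mark the shares over all autosomal genes tested, 50.0% higher and 16.6% lower, and the hair keratin lists lie fully on the lower side.

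Epidermal keratins and serpins led the genes that were higher in ear skin. Krt2, a keratin of the upper epidermal layers known from thick skin, stood at 6849 and 6436 FPKM in ear skin and 0.3 and 0.51 in dorsal skin, a log2 difference of 12.21 ± 0.10 (adjusted p = 8.05e-09). Over all 14 dorsal libraries Krt2 ran from 0.3 to 1.54 FPKM. Krt24, a type I keratin, was 352 and 375 against 1.26 and 1.53 FPKM, with a log2 difference of 7.25 ± 0.09 (adjusted p = 2.68e-08). A set of 3 serine protease inhibitor genes followed. Serpinb6d was 103 and 97.4 against 0.46 and 0.38 FPKM (log2 difference 6.16), Serpinb12 95.7 and 101 against 0.54 and 0.57 FPKM (log2 difference 6.00) and Serpinb3b 68.3 and 72.1 against 0.09 and 0.23 FPKM (log2 difference 5.94). Adh6a, of the alcohol dehydrogenases, was 70.3-fold higher at 288 and 309.6 against 4.74 and 3.76 FPKM. Eno1b, an enolase gene with a near-identical copy so that reads may be split between them, was 71.2 and 65.7 FPKM in ear skin and listed at 0 in both dorsal libraries. The remaining leaders were 2300005B03Rik, Gm5538 and Gm12248, with log2 differences of 7.66, 6.14 and 5.81. In all 10 genes both ear libraries lay above every dorsal library of the 6 stages, and the adjusted p was at most 2.27e-05.

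The 10 genes with the largest differences in the other direction were keratin-associated protein genes, which encode the matrix between hair keratin filaments, or uncharacterised genes. Of these, 9 lay on chromosome 16 and Krtap1-5 on chromosome 11. Krtap22-2 was 24.7 and 26.2 FPKM in ear skin and 19362 and 19210.3 in dorsal skin (log2 difference -9.51 ± 0.06, adjusted p = 6.44e-09). Gm10229 stood at 19.3 and 14.7 against 10729 and 10725 FPKM, and Krtap1-5 at 2.53 and 2.53 against 2581 and 2564. Krtap19-9b, Krtap19-3, Krtap16-3 and Krtap6-3 had log2 differences of -9.73, -9.44, -9.62 and -9.67. For 1110025L11Rik, Gm6358 and Gm7735 the differences were -9.33, -9.88 and -10.85, and Gm7735 was listed at 0 in both ear libraries against 1908 and 1784 FPKM. Members of this family are near-identical, so that the split of reads among them is uncertain. Each of the 10 was lower against both telogens. Over all dorsal stages, 5 of the 10 ear pairs lay below every library, and the other 5, among them Krtap19-9b and Krtap6-3, overlapped the dorsal early anagen libraries.

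Genes of the hair shaft were lower in ear skin without exception. All 9 type I hair keratins, all 5 type II hair keratins and all 56 keratin-associated protein genes tested were called lower, with median log2 differences of -7.39, -6.82 and -7.55, beside 16.6% of all genes called lower. Krt31, a keratin of the hair cortex (chromosome 11, 100046646 to 100050551 in GENCODE on GRCm38), was 5.79 and 4.74 FPKM in ear skin, 1067 and 1056 in dorsal competent telogen and 940.4 and 919 in refractory telogen. Its log2 difference was -7.41 ± 0.09 (adjusted p = 2.93e-08), which is 202-fold lower in FPKM. The other type I keratins of the shaft lay as low. Krt33a was 8.68 and 7.98 against 1975 and 1970.2 FPKM, Krt33b 6.72 and 7.21 against 1401 and 1392 FPKM and Krt34 2.72 and 2.65 against 965 and 947 FPKM. Krt35, an early keratin of the forming shaft, was 4.59 and 4.11 against 902 and 889 FPKM. The type II keratins pair with these in the filament and lay at a like level, with Krt81 at 6.65 and 5.91 against 1622 and 1602 FPKM, Krt83 at 4.52 and 3.75 against 586 and 569.9 FPKM and Krt86 at 4.91 and 4.07 against 1079 and 1063 FPKM. The cuticle keratin Krt82 was 0.36 and 0.48 against 86.1 and 84.7 FPKM. Ear skin thus held under 10 FPKM of each of these 9 keratins, and the libraries of the groups did not overlap. Both ear libraries lay below all 14 dorsal libraries for 9 type I and 4 type II keratins and for 32 of the keratin-associated protein genes. Against dorsal early anagen, where the hair share was lowest, the keratin-associated proteins split into 8 higher and 32 lower of 50 tested.

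The inner root sheath followed the same direction, with 9 of 10 genes lower and a median log2 difference of -7.39. Krt71, a type II keratin of the sheath (chromosome 15, 101733949 to 101743109 in GENCODE on GRCm38), was 59.9 and 57.7 FPKM in ear skin and 8292 and 8240.2 in dorsal skin, with a log2 difference of -7.11 ± 0.05 (adjusted p = 7.63e-09). Its type I partners Krt25, Krt27 and Krt28 were 143-fold, 156-fold and 309-fold lower in ear skin. Krt72 and Krt73 had log2 differences of -8.37 and -7.65, and Krt26 one of -8.18. Trichohyalin (Tchh), the matrix protein of sheath cells, was 10.5 and 9.9 against 2112 and 2035 FPKM. Of the 10 genes 9 lay below all 14 dorsal libraries. Keratins of the layers outside the sheath were split. The companion layer keratin Krt75, made in the layer next to the sheath, was 4.94 and 4.31 against 294 and 294 FPKM. Krt17, of the outer root sheath, was 6.1-fold lower, and Krt6a fell from 255 and 253 FPKM in dorsal to 64.3 and 54.7 in ear skin. Krt6b, a near-identical copy of Krt6a, went the other way at 32.6 and 28.2 FPKM in ear skin against 0 and 0.07, and Krt79, of the upper follicle canal, was 467 and 422 against 97.4 and 95.7. Krt16, a keratin of the same layers, was 80.5 and 70.4 against 60.2 and 59.9 FPKM (log2 difference 0.32 ± 0.11, adjusted p = 0.045), and after median-of-ratios scaling the difference was -0.09 (adjusted p = 0.507).

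Regulators and early products of the hair matrix were also lower. Of 19 genes 1 was higher and 16 lower, with a median log2 difference of -2.36, and 14 lay below all dorsal libraries. Hoxc13, a homeobox factor that drives hair keratin genes, was 3.24 and 3.93 FPKM in ear skin and 67.1 and 71.1 in dorsal skin (log2 difference -3.94 ± 0.10, adjusted p = 6.79e-07). Msx2 and Foxn1 are transcription factors of the differentiating matrix, and Msx2 was 10.4 and 10.7 against 66.2 and 65.5 FPKM and Foxn1 5.86 and 5.82 against 33.7 and 34.6 FPKM. Padi3, which modifies trichohyalin, was 0.35 and 0.3 against 118 and 118. S100a3, a calcium-binding protein of the hair cuticle, stood at 87 and 96.5 against 9495 and 9433 FPKM, and Crym at 5.26 and 4.62 against 1439.7 and 1437. Wnt10a was the 1 member called higher, at 29.9 and 22.2 against 15.5 and 14.4 FPKM, a call lost after median-of-ratios scaling (log2 difference 0.35, adjusted p = 0.131). The same list against refractory telogen gave 3 higher and 14 lower of 19 tested.

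**Figure D2:**
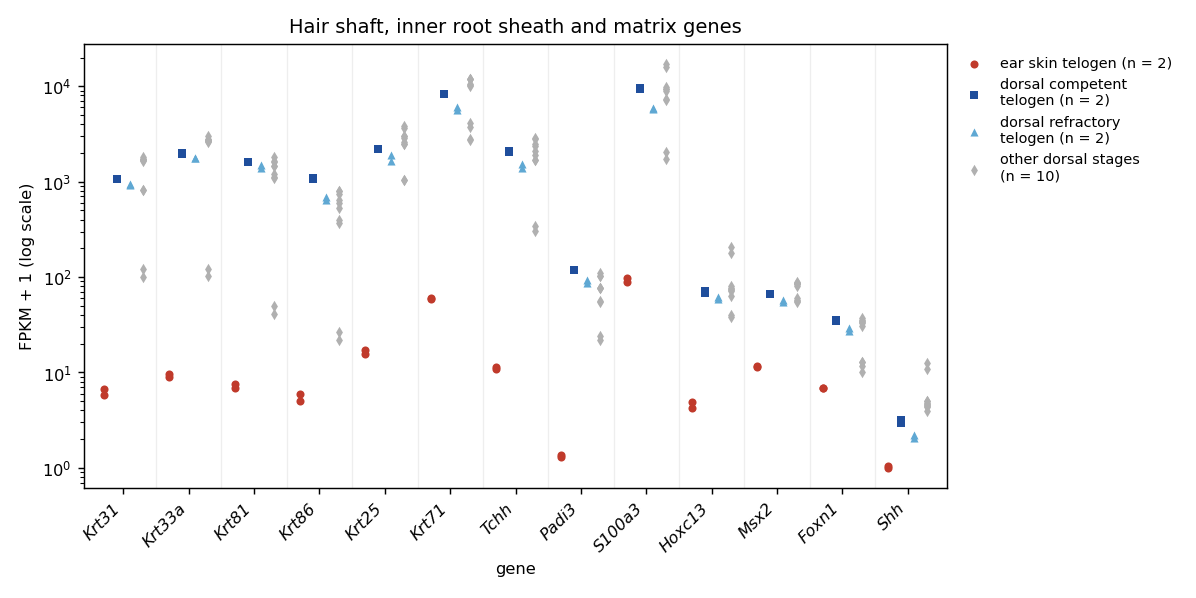
FPKM + 1 on a log axis for genes of the hair shaft (Krt31, Krt33a, Krt81, Krt86), the inner root sheath (Krt25, Krt71, Tchh) and the hair matrix and its products, with 1 point for each library of ear skin, dorsal competent telogen, dorsal refractory telogen and the 10 libraries of the other dorsal stages. The ear points lie below all dorsal points for every gene drawn, and for Krt31 the lowest dorsal points belong to early anagen, with a dorsal range of 100.1 to 1801 FPKM.

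The interfollicular epidermis showed the opposite balance. Among 10 interfollicular keratins 7 were higher and 2 lower, with a median log2 difference of 1.53 beside 0.39 for all genes. Krt10, the keratin of suprabasal cells, was 2296 and 2375 FPKM in ear skin, 149 and 141 in dorsal competent telogen and 677 and 675 in refractory telogen, and the log2 difference from the competent telogen pair was 4.0 ± 0.14 (adjusted p = 3.24e-06). Its type II partner Krt1 was 112 and 108 against 22.5 and 22.8 FPKM (log2 difference 2.23), but stood at 145 and 149 in refractory telogen, from which ear skin differed by -0.41 (adjusted p = 0.0008). Of the basal keratins, Krt5 was 1656 and 1537 against 891 and 873 FPKM and Krt14 4933 and 4421 against 2324 and 2271 FPKM, 1.81-fold and 2.04-fold higher. Against refractory telogen the log2 differences of Krt5 and Krt14 were -0.06 and 0.26, with adjusted p of 0.392 and 0.418. After median-of-ratios scaling the difference of Krt14 was 0.61 (adjusted p = 0.0982). Krt78 was 58.2 and 38.3 against 9.63 and 8.05 FPKM. Krt77, a suprabasal keratin of mouse skin, was lower at 67.2 and 66.7 against 154 and 153 FPKM, and below all dorsal libraries. Krt23 was 162 and 173 against 390.1 and 389. The list against refractory telogen was split into 3 higher and 4 lower of 10.

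Genes of the cornified envelope and the barrier were mostly higher: of 63 tested, 42 were higher and 14 lower, with a median of 1.27, and 34 lay above all dorsal libraries. Loricrin (Lor), the main envelope protein of the epidermis, was 2739 and 2153 against 199.8 and 189 FPKM (log2 difference 3.64 ± 0.14, adjusted p = 4.55e-06). Flg, filaggrin, was 412 and 432 against 65.9 and 69.2, and its relative Hrnr 71.6 and 70.5 against 1.33 and 1.36 FPKM. All of these lay above every dorsal library. Of the late cornified envelope genes, Lce1g was 495 and 541 against 8.51 and 8.23 FPKM, Lce1h 377 and 426 against 7.29 and 8.68 FPKM and Lce1e 497 and 573 against 20.2 and 16.3 FPKM. These copies are alike in sequence, and reads may be split among them. Lower members included Tchhl1, a trichohyalin relative (2.64 and 2.7 against 615 and 619.5), Sprr2h (14.3 and 14 against 393 and 392), Sprr1a (701 and 709 against 5777 and 5641) and Cnfn (431 and 365 against 2040.2 and 1990.4 FPKM). Involucrin (Ivl), an early envelope protein, was also lower, at 54.2 and 48.8 against 207 and 200.3. Levels of Sprr2h and Cnfn lay within the range of the dorsal stages, and in dorsal early anagen Sprr2h was lower than in ear skin (log2 difference 2.11). Against refractory telogen the list gave 43 higher and 12 lower of 62 tested.

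Genes that anchor the epidermis and build the dermis were higher. Of 17 hemidesmosome and basement membrane genes 14 were higher and 0 lower (median 1.03), and after median-of-ratios scaling 13 higher and 1 lower. The higher members were led by Col7a1, the anchoring fibril collagen, at 63.3 and 54 against 8.66 and 10.6 FPKM. Col17a1, a transmembrane collagen of hemidesmosomes, followed at 140.2 and 117 against 22.6 and 21.8. Lamb3, a chain of laminin-332, was 26.2 and 21.9 against 5.01 and 5.34, and Nid1, which links laminin to collagen, 15.2 and 14.9 against 5.27 and 5.75 FPKM. Among 36 dermal matrix genes 30 were higher and 3 lower (median 1.23), and 23 lay above all dorsal libraries. The fibrillar collagens of the dermis stood far above dorsal skin. Col1a1 was 3156 and 3511 against 337 and 333 FPKM, Col1a2 2499 and 2421 against 213 and 216 FPKM and Col3a1 2645 and 2654 against 297 and 297 FPKM, which is 9.96-fold, 11.5-fold and 8.92-fold the dorsal level. For Col1a1 the log2 difference was 3.31 ± 0.09 (adjusted p = 1.06e-06), and 3.27 against refractory telogen. In dorsal early anagen Col1a1 was up to 1646 FPKM, the highest dorsal value, and ear skin differed from that stage by 1.02. Periostin (Postn) was 304 and 327 against 37.5 and 33.5. Lower members were Dpp4, a surface protease of fibroblasts, at 6.92 and 5.75 against 12.5 and 11.8 FPKM, Tnc at 4.57 and 3.87 against 5.73 and 5.49 FPKM and Fbln1 at 13.5 and 10.8 against 16.8 and 16.8 FPKM. Against refractory telogen the adjusted p of Dpp4 was 0.199 and that of Fbln1 0.132.

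**Figure D3:**
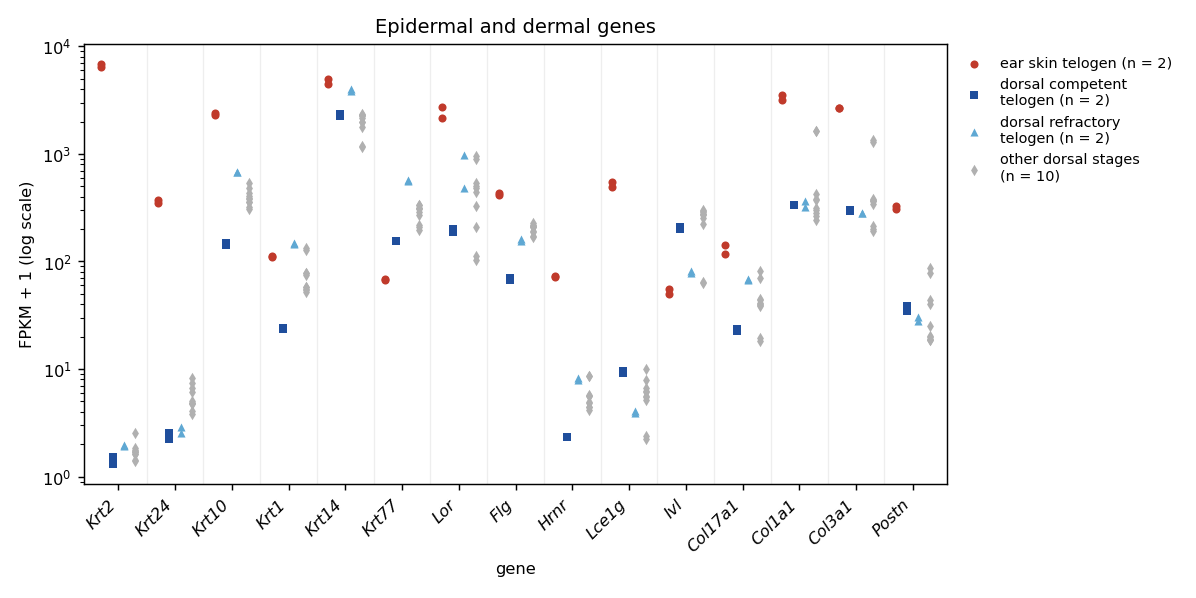
FPKM + 1 on a log axis for epidermal keratins, cornified envelope genes, Col17a1 and dermal matrix genes, with 1 point for each library of ear skin, the 2 dorsal telogens and the other dorsal stages. The ear points of Krt2, at 6849 and 6436 FPKM, stand alone, Krt10, Lor, Flg, Hrnr, Lce1g and the collagens lie above all dorsal points, and Krt77 and Ivl lie below them.

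Position along the body is recorded in skin fibroblasts by Hox and other homeobox genes, and most Hox genes tested were lower in ear skin. Of 39 Hox genes 21 were tested, 6 were higher and 14 lower, with a median log2 difference of -0.89, and 12 lay below all 14 dorsal libraries. Over all genes tested, 50.0% were higher, 16.6% lower and 8.24% below all dorsal libraries. Genes of the trunk, Hoxa7, Hoxb6 and Hoxb7, were close to 0 in ear skin. Hoxb7 was 0.09 and 0.22 FPKM in ear skin and 9.09 and 9.41 in dorsal skin (log2 difference -3.15 ± 0.10, adjusted p = 1.55e-06). Hoxb6 was listed at 0 in both ear libraries and at 5.57 and 5.85 FPKM in dorsal skin, and Hoxa7 was 0.08 and 0 against 7.61 and 6.17. Hoxa2 went the other way. This gene, which patterns the second pharyngeal arch from which the pinna forms, was 3.58 and 3.39 against 0.53 and 0.41 FPKM (log2 difference 1.61 ± 0.13, adjusted p = 9.72e-05) and lay above all dorsal libraries. Hoxd8 (3.7 and 3.75 against 1.89 and 1.98) and Hoxd10 (1.4 and 1.65 against 0.48 and 0.25 FPKM) were also called higher, but overlapped the libraries of the other dorsal stages. Against dorsal refractory telogen, 5 higher and 15 lower of 22 Hox genes tested were called.

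Of 64 other positional factors 36 were tested, and 18 were higher and 10 lower (median 0.40). All genes had 50.0% higher, 16.6% lower and a median of 0.39, so the higher count and the median of this list were those of all genes. Prrx2, a factor of connective tissue mesenchyme, was 11.4 and 11.4 against 1.3 and 1.26 FPKM. Twist2, which acts in the same tissue, was 21.4 and 18.9 against 3.48 and 3.08 FPKM. Dlx5, a homeobox gene of the branchial arches, was 11.4 and 11.9 against 1.39 and 1.82, and Meis2, a partner of Hox proteins, 4.5 and 4.7 against 0.63 and 0.67 FPKM. All 4 lay above every dorsal library. Dlx1 was lower, at 0.42 and 0.35 against 4.54 and 4.65 FPKM. Dlx2, its neighbour in the genome, was 1.9 and 1.95 against 11.1 and 11 FPKM, and so lower too, as were Eya2 (1.34 and 0.95 against 6.29 and 3.63) and Barx2 (3.66 and 3.64 against 9.48 and 8.29 FPKM). The adjusted p was at most 0.00262 for these 8 genes, and all 8 kept their direction against refractory telogen.

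**Figure D4:**
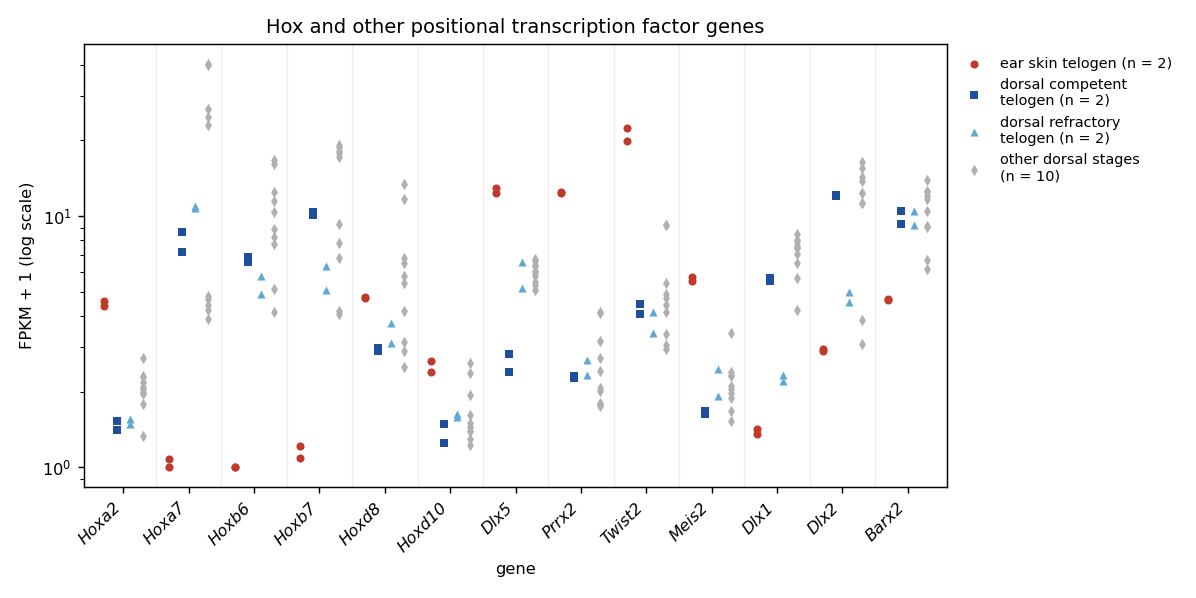
FPKM + 1 on a log axis for Hox genes and other positional transcription factors in each library of ear skin, the 2 dorsal telogens and the other dorsal stages. The ear points of Hoxa7, Hoxb6 and Hoxb7 sit at the foot of the axis, below all dorsal points, and those of Hoxa2, Dlx5, Prrx2, Twist2 and Meis2 lie above them.

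BMP ligands did not move one way. Of 20 BMP and GDF ligand genes 12 were tested, and 4 were higher and 6 lower (median log2 difference -0.38). Bmp4, a ligand of the dermal papilla and dermis, was 11.2 and 11.3 FPKM in ear skin and 24.5 and 25.1 in dorsal skin, a log2 difference of -1.07 ± 0.10 (adjusted p = 0.000206), and 40.4 and 41.6 in refractory telogen. Bmp7 was 14.3 and 12.3 against 19.9 and 19.3 FPKM (log2 difference -0.53 ± 0.11, adjusted p = 0.00489). Bmp8a stood at 0.36 and 0.18 against 12.5 and 12.5, 46.4-fold lower in ear skin. All 3 lay below every dorsal library. Bmp5 was 0.63 and 0.61 FPKM against 0 and 0.02, a difference of 0.68 ± 0.11 (adjusted p = 0.00206) close to the filter of 0.5 FPKM, and within the range of the dorsal stages. Bmp1, a procollagen protease despite its name, was 30.9 and 25.1 against 10.6 and 11.1. Myostatin (Mstn), a GDF of muscle, was 1.13 and 1.21 against 12.9 and 11.3 FPKM, within the range of the dorsal stages. Some genes that the published text singles out for the ear were reported whatever their call, and that choice is no independent evidence. That text names Dkk2, Dkkl1, Sfrp2 and Col17a1 for ear skin. It names Bmp5, Fgf18 and Ctgf for the ear cartilage/muscle complex, not for the ear skin compared here.

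Of 16 BMP antagonists 9 were higher and 4 lower (median 0.66), beside 50.0% higher and 16.6% lower over all genes. After median-of-ratios scaling 8 antagonists were higher and 6 lower, and against refractory telogen 7 higher and 4 lower of 14 tested. Fstl1 (229 and 214 against 75.6 and 72.1), Nbl1 (128 and 109 against 31 and 31.3) and Twsg1 (27.7 and 25.5 against 12.8 and 13.2 FPKM), which bind BMPs outside the cell, were higher, while Grem1 was 0.45 and 0.31 against 1.46 and 1.33 FPKM. Bambi, a decoy receptor of the pathway and also a WNT-responsive gene of the matrix, was 22.1-fold lower, at 2.32 and 1.74 FPKM in ear skin, 44.1 and 45.4 in competent telogen and 34.9 and 33.4 in refractory telogen (log2 difference -3.92 ± 0.13, adjusted p = 2.32e-06). Of 9 genes that respond to BMP signals 1 was higher and 7 lower (median -0.44). Of the inhibitory SMAD genes, which feed back on the pathway, Smad6 was 1.05 and 0.97 against 5.02 and 4.72 FPKM and Smad7 2.02 and 2.02 against 8.18 and 8.93 FPKM. Id2, an inhibitor of bHLH factors, was 161 and 159 against 125 and 123 (log2 difference 0.36 ± 0.08, adjusted p = 0.00715), a call lost after median-of-ratios scaling (log2 difference -0.06, adjusted p = 0.623). Msx1 was lower than in competent telogen (13.9 and 12.9 against 26.7 and 24.7) and higher than in refractory telogen (log2 difference 0.22, adjusted p = 0.0294).

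Among WNT genes, antagonists were mostly higher and ligands mixed. Of 13 ligands 5 were higher and 3 lower (median 0.22), and after median-of-ratios scaling the counts were 2 higher and 3 lower. Wnt7b, a ligand of the epithelium, was 33.4 and 27.9 FPKM in ear skin, 5.7 and 5.58 in dorsal competent telogen and 10.6 and 10.1 in refractory telogen (log2 difference 2.25 ± 0.11, adjusted p = 1.03e-05), and above all dorsal libraries. Wnt4 was 17.2 and 18.4 against 10.9 and 10.5, with an adjusted p of 0.0674 after scaling. The 3 ligands called lower were Wnt5a at 5.97 and 6.16 against 20.5 and 22.6 FPKM, Wnt11 at 6.7 and 5 against 19 and 24 FPKM and Wnt3 at 19 and 17.6 against 21.4 and 22 FPKM, a call near the threshold (adjusted p = 0.0426). Wnt16 was among those called higher, at 2.83 and 2.14 against 0.75 and 0.72 FPKM. Of 15 antagonists 11 were higher and 3 lower (median 0.77). Dkk2, which blocks the LRP co-receptors, was 13.9 and 13.6 against 3.93 and 3.74, and its relative Dkkl1 214 and 209 against 31.6 and 33.4 FPKM (log2 difference 2.67 ± 0.07, adjusted p = 6.67e-07). Sfrp2, a secreted frizzled-related protein, was 31.5 and 31.7 FPKM in ear skin, 10.8 and 10.9 in competent telogen and 1.79 and 2.29 in refractory telogen. These 3 lay above all dorsal libraries. Cthrc1, a secreted modulator of WNT signalling, was 43.2-fold higher at 108 and 113 against 2.76 and 2.36 FPKM. Sfrp1 was lower, at 8.77 and 8.74 against 16.9 and 16.7, and Sfrp4 was 3.75 and 3.27 against 6.4 and 6.27 but higher than in refractory telogen (0.31 and 0.14 FPKM). Against dorsal early anagen the antagonists gave 4 higher and 8 lower of 16 tested, in the opposite balance.

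Genes that WNT signals induce were split. Of 16 tested, 9 were higher and 5 lower (median 0.52), and after median-of-ratios scaling 7 higher and 5 lower. All genes had 50.0% higher, 16.6% lower and a median of 0.39. The higher share and the median of this list were near those values. Lef1, the nuclear partner of beta-catenin in the hair matrix, was 1.26 and 1.63 FPKM in ear skin against 33.3 and 30.8 (log2 difference -3.76 ± 0.10, adjusted p = 8.66e-07). Ctnnb1, which encodes beta-catenin, was 53.2 and 48 against 95.5 and 93.4. Sp5 went the other way, at 4.11 and 3.8 FPKM against 0.07 and 0.09, and Tnfrsf19 was 21.5 and 19.9 against 7.51 and 6.76. Lgr6 was 5.34 and 4.53 against 1.32 and 1.38.

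Hedgehog and FGF genes also split. Of 13 Hedgehog pathway genes 4 were higher and 5 lower (median -0.18), and after median-of-ratios scaling 4 higher and 8 lower. Shh, the ligand of the growing matrix, was 0 and 0.05 FPKM in ear skin, 2.21 and 1.97 in dorsal competent telogen and 1.19 and 1.08 in refractory telogen (log2 difference -1.59 ± 0.09, adjusted p = 2.29e-05). Its receptor and target Ptch1 was 1.69 and 1.65 against 4.24 and 4.7 FPKM. The co-receptor genes Gas1 and Boc were higher, with Gas1 at 143 and 117 against 50.8 and 50.2 FPKM and Boc at 6.43 and 5.52 against 2.26 and 2.29 FPKM. Against refractory telogen the adjusted p of Gas1 was 0.0528. Of 10 FGF ligands 3 were higher and 4 lower (median 0.03). Fgf5, the factor that ends anagen, was 0.03 and 0.14 against 10.4 and 8.85 FPKM (log2 difference -3.29 ± 0.14, adjusted p = 5.91e-06) and below all dorsal libraries. Fgf18, which is made by the resting bulge, was 2.94 and 3.67 against 0.88 and 0.61 FPKM (log2 difference 1.30 ± 0.13, adjusted p = 0.000261), while refractory telogen had 3.32 and 2.98 FPKM and ear skin differed from it by 0.05 (adjusted p = 0.756). Ctgf, a matricellular gene, was 21.8 and 17 against 12.4 and 12.8 FPKM (log2 difference 0.58 ± 0.14, adjusted p = 0.00938), and after median-of-ratios scaling the adjusted p was 0.197.

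**Figure D5:**
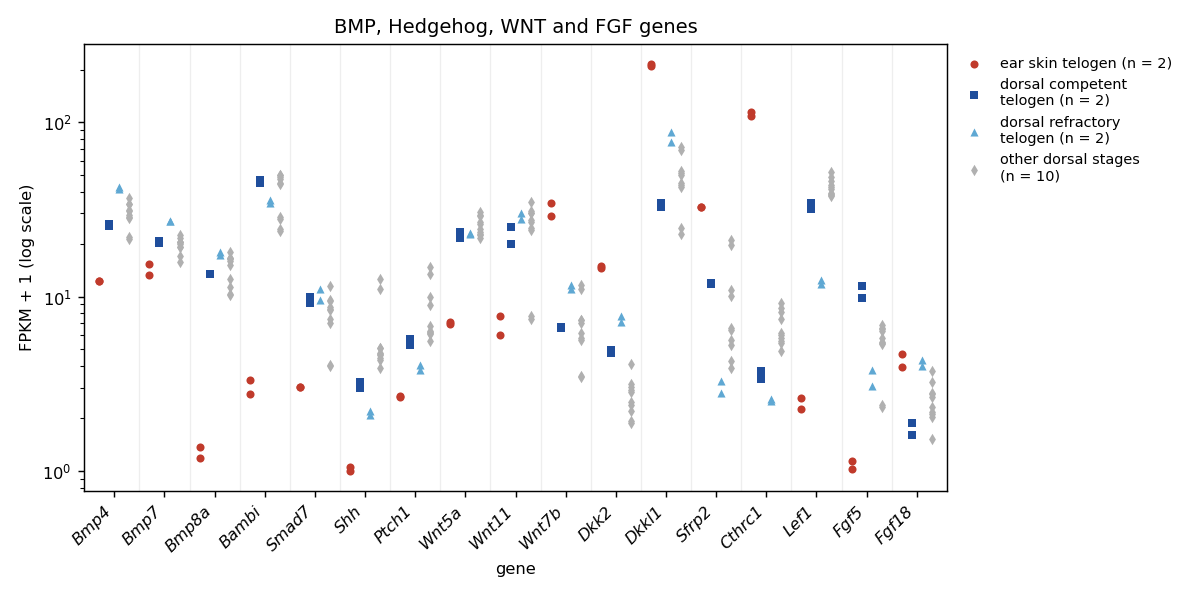
FPKM + 1 on a log axis for BMP, Hedgehog, WNT and FGF genes in each library of ear skin, the 2 dorsal telogens and the other dorsal stages. The ear points of Bmp4, Bmp7, Bmp8a, Bambi, Smad7, Shh, Ptch1, Wnt5a, Lef1 and Fgf5 lie below all dorsal points, those of Wnt7b, Dkk2, Dkkl1, Sfrp2 and Cthrc1 lie above them, and those of Wnt11 and Fgf18 overlap them.

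Stem cell genes of the follicle were split. Of 20 genes 9 were higher and 7 lower (median -0.09), and after median-of-ratios scaling 7 higher and 10 lower. All genes had 50.0% higher, 16.6% lower and a median of 0.39. Cd34, a surface marker of bulge cells that vessels and fibroblasts also make, was 111 and 112 FPKM against 37.6 and 35.3 (log2 difference 1.59 ± 0.07, adjusted p = 7.26e-06), and above all dorsal libraries. Krt15, of bulge and basal cells, was 2628 and 2777 against 664 and 649, but refractory telogen had 1882 and 1986 FPKM (log2 difference 0.48, adjusted p = 0.117). Nfatc1, a factor of quiescent bulge cells, was 14 and 13.5 against 3.8 and 4.31 FPKM. Other members of the list were lower. Lgr5 was 2.55 and 2.29 against 7.06 and 7.44 FPKM, Lhx2 1.45 and 1.82 against 7.56 and 7.07 FPKM, Sox9 28.6 and 30.1 against 102 and 99 FPKM and Runx1 2.82 and 3.16 against 11.1 and 10.9 FPKM, all below every dorsal library.

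Of 23 dermal papilla genes 11 were higher and 7 lower (median 0.33), and after median-of-ratios scaling 8 higher and 9 lower. Corin, a protease of the papilla, was 0.12 and 0.21 against 1.23 and 1.2 FPKM, and Inhba, an activin subunit, 1.8 and 2.05 against 11.6 and 11.2. Alpl was 1.17 and 1 against 1.12 and 1.16 (log2 difference -0.04 ± 0.17, adjusted p = 0.855). Rspo3, an enhancer of WNT signalling, was 4 and 4.99 against 1.57 and 1.38, and Sox18, which is also a gene of vessels, 13.6 and 9.17 against 3.64 and 4.17. For proliferation genes the direction depended on which telogen was taken. Of 37 genes, 4 were higher and 15 lower than in competent telogen (median -0.19), while against refractory telogen the counts were 35 higher and 0 lower of 37 and against early anagen 0 higher and 36 lower of 37. Mki67, a marker of cycling cells, was 4.22 and 4.18 FPKM in ear skin, 6.27 and 6.12 in competent telogen and 1.88 and 2.14 in refractory telogen. Top2a, a topoisomerase of dividing cells, was 16.6 and 18 FPKM in ear skin, 22.1 and 22.2 in competent and 9.04 and 10.3 in refractory telogen. Pcna, of the replication fork, was 69.6 and 74.8 FPKM in ear skin, above both competent (50.4 and 51.5) and refractory telogen (33.3 and 33).

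Sebaceous gland genes were higher in ear skin. Of 17 tested 15 were higher and 1 lower (median 1.96), and 11 lay above all dorsal libraries. Fa2h, which hydroxylates fatty acids, was 359.7 and 313 against 12.1 and 11.2 FPKM, and Far2, which makes the fatty alcohols of sebum waxes, 169 and 175 against 5.76 and 5.43 FPKM. Elovl3, an elongase of the gland, was 651 and 669 against 117 and 122 (log2 difference 2.46 ± 0.17, adjusted p = 4.56e-05), and Cidea, a lipid droplet protein, 382 and 346 against 23.3 and 25.5. Mc5r, the melanocortin receptor of the gland, was 3.77 and 3.51 against 6.81 and 5.03 FPKM and was not called (log2 difference -0.57 ± 0.21, adjusted p = 0.0524). Of 23 adipocyte genes 10 were higher and 9 lower (median -0.01), against refractory telogen 19 higher and 2 lower of 23, and after median-of-ratios scaling 8 higher and 12 lower. Adipoq, the hormone of fat cells, was 108 and 101 FPKM in ear skin, 182 and 183 in competent telogen and 25.3 and 25.6 in refractory telogen. Fabp4 and Cfd are abundant in fat. Fabp4 was 364 and 374 against 1874 and 1873 FPKM, and Cfd was 307 and 249 FPKM in ear skin, 1155 and 1138 in competent and 156 and 148 in refractory telogen, so that ear skin lay between the dorsal groups in Adipoq and Cfd. Scd1 (844 and 805 against 115 and 114) and Dgat2 (238 and 223 against 58 and 59.8 FPKM), on the higher side, are enzymes of lipid synthesis that sebocytes also use. Leptin (Lep) was 4.41 and 3.44 against 4.1 and 4.15 FPKM (log2 difference -0.06 ± 0.15, adjusted p = 0.729).

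Transcripts of muscle were lower in ear skin and the defining transcripts of cartilage were near 0 in both skins. Of 34 skeletal muscle genes 2 were higher and 29 lower (median -1.81). The summed level of the list was 2206 and 2125 FPKM in ear skin and 9459 and 9409.8 in dorsal skin, within the range of 887 to 11122 FPKM over the dorsal stages. Acta1, the actin of muscle fibres, was 312 and 298 against 1341 and 1335 FPKM, and Myh4, the myosin of fast fibres, 18.7 and 18.6 against 95.8 and 93.7. Ttn was 15.2 and 15.7 against 98.4 and 88 and Pvalb 61.5 and 65.3 against 381 and 378. How much muscle each biopsy held was not tested. Of 11 smooth muscle genes 1 was higher and 7 lower (median -0.61), with Acta2 at 38.9 and 38.2 against 54.5 and 54.4 FPKM and Des at 11.8 and 11 against 35.9 and 32.5 FPKM. Against refractory telogen the adjusted p of Acta2 was 0.28. Of the defining cartilage genes, Matn1 was listed at 0 in all 4 libraries, Col2a1 was 0.22 and 0.21 against 0.08 and 0.05, Acan 0.13 and 0.1 against 0.2 and 0.14 and Col9a1 0.43 and 0.45 against 0.02 and 0.06 FPKM. In the ear cartilage/muscle complex, sequenced as 3 libraries of the same table, Col2a1 was 68.5, 77.1 and 66.3 FPKM. The members of that list that were called higher, 12 of 17, were led by Fmod (26.3 and 23.1 against 1.6 and 1.82), Cilp (28 and 24.7 against 5.18 and 4.83), Chad (3.47 and 4.26 against 0.04 and 0.16) and Cytl1 (16.8 and 16.5 against 3.31 and 3.42 FPKM). In the cartilage/muscle complex Cytl1 was 47488, 45029.8 and 46479 FPKM and Chad 1876, 2145 and 1877. The part of adhering cartilage in the ear skin values was not tested.

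Most pigment genes were lower than in competent telogen and higher than in refractory telogen. Of 19 tested 5 were higher and 10 lower (median -0.44), and against refractory telogen 15 higher and 1 lower of 18. Dct, an enzyme of melanin synthesis, was 36.9 and 35.9 FPKM in ear skin, 49.4 and 50.2 in competent telogen and 2.9 and 3.91 in refractory telogen. Tyrp1 was 19.5 and 18.8 against 17.8 and 18.2 (log2 difference 0.08 ± 0.08, adjusted p = 0.379), and Tyr, which makes the first step of melanin synthesis, 4.18 and 4.93 against 15.2 and 13.9, with an adjusted p of 0.619 against refractory telogen. Pmel, the fibril protein of melanosomes, was 62.6 and 53.1 FPKM in ear skin, 42.6 and 43.8 in competent and 0.73 and 1.34 in refractory telogen, and its difference from competent telogen did not pass after median-of-ratios scaling (adjusted p = 0.991). Mitf, the master factor of melanocytes, which has other isoforms in other cells, was 3.91 and 3.55 against 10.4 and 11.2 FPKM and below all dorsal libraries.

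Immune cell genes were higher in ear skin as lists. Over all genes tested, 50.0% were higher, 16.6% lower and 28.6% above all dorsal libraries. Of 25 macrophage genes 19 were higher and 0 lower (median 1.05), and 21 lay above all dorsal libraries. After median-of-ratios scaling 16 macrophage genes were higher and 3 lower. Csf1r, the receptor that macrophages need, was 37.2 and 31.8 against 6.21 and 5.8 FPKM (log2 difference 2.34 ± 0.12, adjusted p = 1.46e-05), Cd68 76.1 and 69.6 against 19.2 and 17.6 and Ctss 145 and 147 against 28.4 and 28.4. Of 13 Langerhans and dendritic cell genes 10 were higher and 1 lower (median 1.21). Langerin (Cd207) was 17.6 and 14.5 against 2.49 and 1.9, above all dorsal libraries. Genes of MHC class II presentation were higher, with Cd74 at 1243 and 1141 against 265 and 255 FPKM and H2-Ab1 at 817 and 782 against 189 and 183 FPKM. Of 22 T cell and innate lymphoid genes 18 were higher and 0 lower (median 1.08), and after median-of-ratios scaling 16 higher and 1 lower. Cd3g was 25.7 and 28.4 against 4.01 and 3.51, and Trdv4, a variable segment of the gamma delta T cells that live in mouse epidermis, 17.2 and 16.8 against 1.25 and 1.54 FPKM. Cd3e was 4.29 and 3.38 against 1.15 and 1.25, while refractory telogen had 3.42 and 3.64 FPKM, from which ear skin differed by 0.09 (adjusted p = 0.526). Of 15 mast cell genes 14 were higher and 1 lower (median 2.05). Of the granule proteases, Cma1 was 212 and 193 against 22.2 and 25.6 FPKM, Mcpt4 144 and 133 against 26.1 and 30.1 FPKM and Cpa3 74.6 and 82 against 11.3 and 12.8 FPKM, all above every dorsal library. Tpsab1, a tryptase, was 39.2 and 33 against 0.07 and 0.17 FPKM. The receptor gene Kit, which melanocytes also make, was lower, at 3.77 and 2.58 against 6.24 and 6.31 FPKM, with an adjusted p of 0.487 against refractory telogen.

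Of 27 chemokine genes 17 were higher and 5 lower (median 0.68). Ccl21a, a chemokine of lymphatic vessels with near-identical copies in the genome, was 462 and 468 against 51.1 and 47.6 FPKM, and Ccl24 14.8 and 16.2 against 5.21 and 5.3. Ccl27a, made by keratinocytes, was lower, at 268 and 266 FPKM in ear skin, 1029 and 1015 in competent and 1849 and 1876 in refractory telogen, and Cxcl14 was 56.8 and 54.9 against 128 and 125 FPKM. Of 9 B cell and neutrophil genes 4 were higher and 3 lower, and after median-of-ratios scaling 2 higher and 3 lower. Mpo, a granule enzyme of myeloid cells, was 10.4 and 8.62 FPKM in ear skin and listed at 0 in both dorsal libraries, while the neutrophil marker Ly6g was listed at 0 in all 4. S100a8 was 48.2 and 49.3 against 222 and 221 FPKM, and 38.1 and 38.2 in refractory telogen.

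Vessel and nerve genes were higher too. Of 28 vessel genes 22 were higher and 1 lower (median 1.06). Cldn5, a tight junction protein of endothelium, was 61.1 and 49.3 against 9.29 and 10.0 FPKM, the pericyte gene Rgs5 44.1 and 47.2 against 6.93 and 6.25, the lymphatic gene Lyve1 11.3 and 11.4 against 3.32 and 3.26 FPKM and Mmrn1, also of lymphatics, 8.83 and 9.69 against 0.66 and 0.63 FPKM. Defining genes of endothelium differed less. Pecam1 was 14.4 and 14.7 against 8.96 and 9.7 (log2 difference 0.59 ± 0.20, adjusted p = 0.0386), with an adjusted p of 0.443 after median-of-ratios scaling, and Cdh5 was 2.8 and 2.69 against 3.01 and 3.36 FPKM (log2 difference -0.16 ± 0.09, adjusted p = 0.17). Of 18 nerve and Schwann cell genes 14 were higher and 0 lower (median 1.04), and after median-of-ratios scaling 13 higher and 2 lower. Of the myelin genes, Mbp was 172 and 146 against 35.6 and 35.3 FPKM and Pmp22 352 and 353 against 87.3 and 86.5 FPKM. Gap43, a protein of growing axons and Schwann cells, was 14.9 and 15.9 against 0.69 and 1.02 FPKM.

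Of 18 circadian clock genes 17 were higher and 1 lower (median 1.67), beside 50.0% of all genes. Per3, a gene of the negative limb of the clock, was 82.6 and 82.2 FPKM in ear skin and 8.52 and 7.66 in dorsal skin (log2 difference 3.20 ± 0.10, adjusted p = 1.41e-06), with a range of 3.94 to 17.8 over the dorsal libraries. Ciart was 50.9 and 49.3 against 4.84 and 4.77, Rora 125 and 127 against 17 and 17.6 and Hlf 12.5 and 12 against 1.17 and 1.25 FPKM. Nfil3, which is known to be high at the opposite phase to the Hlf family, was the 1 lower member, at 3.01 and 2.56 against 25.9 and 25.6. The hour at which the skin was taken is not given in the sources used here, so that hour and body site cannot be told apart. Of 27 immediate early genes 9 were higher and 7 lower (median 0.04), with Fos at 23.3 and 23 against 35.5 and 36.5 FPKM and 147 and 139 in refractory telogen, Egr1 at 23.4 and 23.5 against 52.8 and 53.9 and Dusp1 at 65.7 and 61.2 against 23.2 and 22.6 FPKM. Against refractory telogen that list gave 4 higher and 17 lower of 27, and after median-of-ratios scaling 7 higher and 15 lower. Of 44 nuclear genes of the respiratory chain 9 were higher and 16 lower (median -0.06), and after median-of-ratios scaling 1 higher and 34 lower. Cox5b was 354 and 359.9 against 632 and 635, and Ndufa4 1599.6 and 1526 against 1131 and 1129 FPKM, with an adjusted p of 0.435 after scaling. Transcripts of red blood cells differed as well. All 5 blood cell genes were lower than in competent telogen, among them Hba-a2 at 857 and 906 against 1682 and 1619.7 FPKM, and 4 of 5 were higher than in refractory telogen.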

How the data were processed

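Skin was sequenced by paired-end RNA-seq of full-length cDNA. Reads were mapped and quantified with RSEM 1.2.25 on mm10 with GENCODE annotation, and the authors deposited FPKM values in 2 tables. They state a batch correction, whose batches are not given in the sources used here. Whether the deposited values carry that correction was not tested. No read counts were used. Depth was estimated from the steps between low FPKM values. The ear skin columns, numbered 2 and 3, were assigned by group, and replicate numbers only name them.

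Values were tested as log2(FPKM + 1) with limma 3.58.1 in R 4.3.3, letting the variance follow the mean level, over the 7 libraries of the ear table (ear skin, dorsal competent telogen and ear cartilage/muscle complex, 4 residual degrees of freedom). Adjusted p-values are Benjamini-Hochberg values over 17353 genes of all chromosomes that passed the filter of 0.5 FPKM in at least 2 of the 4 libraries compared, and autosomal genes were counted at 0.05. In simulated data for this comparison on 17353 genes, 92 of 100 genes changed by 1 and 96 of 100 changed by 2 on the log2 scale were recovered, with 12 false calls. The changed genes lay well above the filter and were far fewer than those called in the data, and no shift of scale was simulated. These figures therefore do not cover genes near the filter or the choice of scaling. Dorsal levels of other stages come from a second table, whose competent telogen columns hold the same values.

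The groups, the 41 gene lists and the genes named were chosen with earlier results of these data known. Named were the 10 protein-coding genes with the largest log2 difference in each direction (adjusted p under 0.05, a mean of at least 5 FPKM in the higher group, no overlap of libraries), the defining genes of each list with up to 4 called members per direction, and some genes singled out in the published text. A list is described by its counts beside those of all genes. Alternatives were another pseudocount, other filters, TPM, median of ratios and quantile scaling, no variance trend, only 4 libraries, leaving out each library, and other dorsal groups. Chromosomes and gene coordinates come from GENCODE vM21 on GRCm38, which placed 46488 of the genes, and promoter sequences from RefSeq on GRCm38.p6. Some genes are not reported here.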

Additional observations from a re-analysis of the deposited data

Results flagged for a closer look

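Genes outside the autosomes were not part of the comparison, and 4 genes of the Y chromosome carried a signal in the ear skin libraries above that of every dorsal, chin and ventral library. Ddx3y, an RNA helicase, was 30.35 and 32.19 FPKM in ear skin. Eif2s3y, a translation initiation factor, was 56.94 and 58.59 FPKM, Uty, a histone demethylase relative, 13.09 and 14.74 FPKM, and Kdm5d, a histone demethylase, 3.12 and 2.62 FPKM. The highest value among the skin libraries of the other sites was 1.27 FPKM for Uty and 0.52 FPKM for Kdm5d. Xist went the other way, at 0.01 and 0.02 FPKM in ear skin and from 3.8 to 22.59 FPKM in the other skin libraries, and the ear cartilage/muscle libraries had 14.44 to 16.7 FPKM. Whether the difference in sex carried over to autosomal genes was not tested, since sex and body site cannot be told apart.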

How the results depend on the processing

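The direction of the balance, more genes higher than lower in ear skin, held under all 15 alternatives, while the counts did not. They were 5487 higher and 4722 lower after median-of-ratios scaling, 5442 higher and 4512 lower after quantile normalization, 10055 higher and 2030 lower as TPM, 5487 higher and 1996 lower with a minimum of 5 FPKM and 4779 higher and 3910 lower against dorsal early anagen. Leaving out 1 library gave 5944 to 7103 higher and 1923 to 2375 lower, and the lone library of a group was then assumed to vary like the other groups. With the dorsal pair averaged as 1 library the counts were 6961 higher and 1889 lower. This fit and the one against dorsal early anagen were chosen after seeing the data. Genes outside the dorsal range fell to 2528 above and 696 below against all chin, ventral and dorsal libraries, to 645 and 248 with a gap of at least 1 on the log2 scale, and were 3932 and 2104 after median-of-ratios scaling.

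Of 213 tested genes named in the text, 208 passed the test. None of those that passed changed direction with another pseudocount, filter, variance model or set of libraries of the same 2 groups. Calls were lost when 1 of the 4 libraries was left out for Krt16 (in 3, adjusted p up to 0.215), Wnt10a (in 2, adjusted p up to 0.076), Krt14 (in 4, adjusted p up to 0.0944), Tnc (in 3, adjusted p up to 0.0919), Fbln1 (in 3, adjusted p up to 0.214), Wnt3 (in 4, adjusted p up to 0.168), Top2a (in 3, adjusted p up to 0.0924), Pmel (in 3, adjusted p up to 0.12) and Pecam1 (in 4, adjusted p up to 0.14). Mc5r passed only without dorsal replicate 2 (adjusted p = 0.0472). Directions turned after median-of-ratios scaling for Krt16 -0.09, Id2 -0.055, Tyrp1 -0.31 and Pmel -0.002, after quantile normalization for Tyrp1 -0.25 and as TPM for Wnt3 0.006, as log2 differences. Against dorsal refractory telogen they turned to Krt1 -0.41, Krt5 -0.062, Fbln1 0.28, Msx1 0.22, Sfrp4 1.88, Ctgf -0.004, Alpl 0.43, Mki67 0.79, Top2a 0.78, Adipoq 1.99, Cfd 0.86, Lep 1.89, Acta2 0.09, Dct 3.10, Tyr 0.12, Kit 0.15, S100a8 0.35, Dusp1 -0.15 and Hba-a2 0.91. Against dorsal early anagen they turned to Krtap19-9b 0.84, Krtap19-3 0.33, Krtap16-3 0.074, Krt79 -0.34, Wnt10a -0.17, Krt1 -0.24, Sprr2h 2.11, Cnfn 0.35, Nid1 -0.031, Hoxd8 -1.41, Id2 -0.18, Wnt3 0.09, Tnfrsf19 -0.46, Lgr6 -0.029, Boc -0.022, Nfatc1 -0.17, Rspo3 -0.41, Sox18 -0.82, Pcna -0.77, Tyrp1 -2.17, Pmel -2.10, S100a8 0.024, Pecam1 -0.31 and Dusp1 -0.79. The causes were not tested. The median of 3 of 41 lists changed sign after median-of-ratios scaling, and of 7 against refractory telogen. No paired analysis was possible because the ear columns are numbered 2 and 3 and the dorsal columns 1 and 2, and they share fewer than 2 numbers. At this depth 25557 autosomal genes stayed under the filter and were not tested.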
